A study of Mus musculus with 2 samples.

Results

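The genes described here are 42 genes of DNA replication and S phase, the part of the cell cycle in which the genome is copied, out of 32285 genes measured. They were chosen by name, from the usual S phase list with replication factors added, by a rule that uses no measured value, though earlier results of these data were known. They were read in 2 droplet libraries of single bone marrow cells, both from C57Bl6 wild-type mice aged 8 weeks. The library labelled LT-HSC (long-term haematopoietic stem cells) was sorted as LSK cells, which lack lineage markers and carry Sca-1 and Kit, and its gate was CD34-, CD150+, CD48- and Flk2-. The library labelled ST-HSC (short-term haematopoietic stem cells) was sorted as LSK cells that were CD34-, CD150+ and CD48+. There was 1 library per gate, the labels do not say how many mice went into it, and no agent or allele distinguishes the groups. A difference between the libraries therefore has no replicate check, and since single cells cannot stand in for replicates, p-values are not given.

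Before a chromosome is copied, Cdc6 and its partners load the ring-shaped Mcm2-7 helicase at origins, and geminin (Gmnn) blocks further loading once S phase has begun. Cdc45 and the GINS complex turn the loaded ring into a moving helicase, primase and DNA polymerases follow it with the clamp Pcna, and chaperones put histones back on the new DNA. Transcription of most of these genes is switched on by E2F factors around the entry into S phase, and most adult stem cells in marrow are at rest, while the progenitors that they give rise to divide often.

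Cells with at least 1000 detected genes and under 10% of mitochondrially encoded UMIs (unique molecular identifiers, each standing for 1 captured RNA molecule) were kept. These were 2722 of 2938 barcodes in the library labelled LT-HSC and 6648 of 7586 in that labelled ST-HSC, and 8 kept barcodes occurred in both. RNA of the sorted markers went against the ST-HSC gate for some genes and not for others. Slamf1, which encodes CD150, was at 1.26 CPM (the usual depth-scaled unit, from a gene's UMIs summed over the cells of a group) there and 26.5 CPM in LT-HSC, and Cd34 was at 242 CPM there and 29.2 CPM in LT-HSC, both opposite to that gate. Cd48 was at 74.7 CPM in ST-HSC and 35.3 CPM in LT-HSC, and Flt3, which encodes Flk2, at 291 and 5.50 CPM, the order that the gates for CD48 and, in LT-HSC, Flk2 would give. The names LT-HSC and ST-HSC therefore stand for the labels of the libraries throughout. Within each library, cells with Car1, an erythroid carbonic anhydrase, at 0.2% or more of their UMIs are called Car1-high, and cells with Pf4, a platelet chemokine, at 0.05% or more are called Pf4-high. LT-HSC held 744 Car1-high cells, 314 Pf4-high cells, 9 past both limits, which were left out of both groups, and 1655 other cells. ST-HSC held 268 Car1-high cells, 49 Pf4-high cells and 6331 other cells. These groups are ranges and not cell types, with 94 LT-HSC cells at 0.1% to 0.2% Car1 and 105 at 0.2% to 0.3%, and 148 at 0.02% to 0.05% Pf4 and 69 at 0.05% to 0.1%. The 16 erythroid markers, all found in both groups, summed to 10320 CPM in LT-HSC Car1-high cells against 842 CPM in other ST-HSC cells. Car1, which defines the group, made up 6793 CPM of the first sum and 54.3 CPM of the second. Klf1 was at 155 against 9.02 CPM, while the globin gene Hbb-bs went the other way, at 3.80 against 41.5 CPM. The 12 megakaryocyte markers summed to 6533 CPM in the LT-HSC Pf4-high cells against 152 CPM in other ST-HSC cells. Pf4, which defines that group, made up 4838 CPM of the first sum and 12.5 CPM of the second. Neutrophil and monocyte markers summed to 1655 CPM and lymphoid markers to 886 CPM in other ST-HSC cells, against 27.6 and 2.74 CPM in LT-HSC Car1-high and 121 and 5.25 CPM in Pf4-high cells. Median depth was 33237 UMIs in Car1-high, 23168 in Pf4-high and 13376 in other LT-HSC cells, and 13038 in other ST-HSC cells. The median mitochondrial share was 1.40%, 1.47% and 1.74% in those LT-HSC groups and 3.46% in other ST-HSC cells. The part of these other cell types, of depth, of mitochondrial share and of library in the differences below was not tested, except where thinned values are given.

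The promoters of the set were read for what they share, since the choice of genes did not use sequence. RefSeq promoter windows (GRCm38.p6, from 250 bases before to 50 bases after the start) were found by symbol for 32 of the 42 genes, which have 36 windows. The E2F words searched on both strands were TTTCCCGC, TTTGGCGC, TTTCGCGC and TTTGCCGC, and a match may overlap another. They occurred in 14 of the 36 windows, or 38.9%, against 2.26% of all 32851 windows of that length. CCAAT, the word read by the factor NF-Y, occurred in 69.4% of the windows against 37.4% of all. Median GC content was 58.7% in the windows of the set and 52.7% in all. Shown are the stretches before the start for the helicase subunits Mcm5 and Mcm6, in which both words recur, for Pola1 and Nasp, which were lower in LT-HSC than in ST-HSC cells as a whole, and for Rrm2, which was higher in the Car1-high and Pf4-high LT-HSC cells. Each runs 5′ to 3′ on the strand of its gene, and capitals mark matches to an E2F word or to CCAAT, on either strand. Mcm5 is taken from chr8:75109336-75109508 (plus strand), Mcm6 from chr1:128359706-128359835 (minus), Pola1 from chrX:93632168-93632313 (minus), Nasp from chr4:116628026-116628160 (minus) and Rrm2 from chr12:24708184-24708228 (plus).
Mcm5: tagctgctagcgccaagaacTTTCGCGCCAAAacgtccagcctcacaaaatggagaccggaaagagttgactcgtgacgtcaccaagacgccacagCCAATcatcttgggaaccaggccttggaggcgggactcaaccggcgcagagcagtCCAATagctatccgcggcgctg
Mcm6: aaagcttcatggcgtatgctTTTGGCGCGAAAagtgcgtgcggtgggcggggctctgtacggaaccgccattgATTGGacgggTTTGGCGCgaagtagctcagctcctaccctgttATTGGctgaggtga
Pola1: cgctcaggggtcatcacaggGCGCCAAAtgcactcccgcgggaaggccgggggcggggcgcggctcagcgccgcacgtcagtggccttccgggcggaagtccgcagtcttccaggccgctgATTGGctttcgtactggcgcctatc
Nasp: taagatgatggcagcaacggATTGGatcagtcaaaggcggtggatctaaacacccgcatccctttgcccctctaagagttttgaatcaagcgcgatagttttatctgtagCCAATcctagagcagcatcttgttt
Rrm2: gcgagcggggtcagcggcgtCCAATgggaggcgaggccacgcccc
Mcm5 and Mcm6 each carry a pair of overlapping E2F words on opposite strands, and Pola1 carries an E2F word and a CCAAT. Nasp and Rrm2 had CCAAT and no match to the E2F words in these windows, and Fen1, whose 2 windows had neither, was the only gene of the set past 1.5-fold higher in LT-HSC as a whole. A match is a description of letters and not a bound site.

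RNA of the 42 genes together, called the module here, took a larger share of the cell in Car1-high and Pf4-high LT-HSC cells than in the rest of that library. The median cell gave the module 0.318% of its UMIs in the LT-HSC Car1-high group, 0.371% in the Pf4-high group and 0.131% among other LT-HSC cells. In other ST-HSC cells the median was 0.211%, and in ST-HSC Car1-high cells it was 0.453%, the highest of these groups. Summed over cells, the module stood at 3552 CPM in LT-HSC Car1-high cells, 4199 in Pf4-high, 2797 in other LT-HSC cells, 3518 in other ST-HSC cells and 4480 in ST-HSC Car1-high cells. The 49 ST-HSC Pf4-high cells went the other way within their library, below other ST-HSC cells. Their median was 0.0885% and their sum 2301 CPM, at a median depth of 8104 UMIs. The ratio of Car1-high LT-HSC to other ST-HSC cells was 1.01 (95% interval 1.003 to 1.02), that of Pf4-high to the same cells 1.19 (1.18 to 1.21), and that of other LT-HSC to other ST-HSC cells 0.795 (0.789 to 0.801). Intervals of ratios are exact binomial intervals of summed UMIs, those of shares are exact binomial intervals over cells, and both cover counting error only, not the spread between animals or libraries. Sums weigh cells by their RNA. With every cell weighted equally the first ratio was 1.18, and with TMM factors, which centre the bulk of genes, it was 1.35. The 3 comparisons share the other ST-HSC cells.

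**Figure D1:**
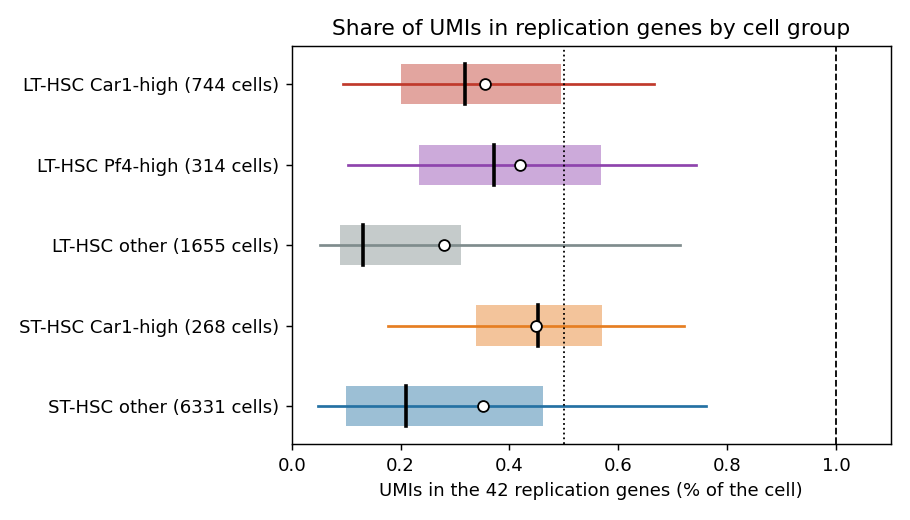
Percent of each cell's UMIs in the 42 replication genes (x axis) for 5 groups of cells (y axis). Boxes span the 25th to 75th percentile, black bars are medians, white points the share in the summed UMIs, and lines run from the 5th to the 95th percentile. The dotted line marks 0.5% and the dashed line 1%, and the medians run from 0.131% in other LT-HSC cells to 0.453% in ST-HSC Car1-high cells.

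A limit of 1% of UMIs in the module separated almost no cells. It was reached by 0 of 744 LT-HSC Car1-high cells (exact 95% interval up to 0.495%), by 0 of 314 Pf4-high cells (up to 1.17%), by 3 of 1655 other LT-HSC cells and by 20 of 6331 other ST-HSC cells. Cells at 0.5% or more, here called module-high, were used in its place, with 238 LT-HSC cells at 0.4% to 0.5% and 212 at 0.5% to 0.6%. After each cell was thinned to 5000 UMIs, they made up 23.2% of LT-HSC Car1-high cells (exact 95% interval 20.2% to 26.4%, 738 cells deep enough), 34.3% of Pf4-high cells (29.0% to 39.9%, 309 cells) and 14.0% of other LT-HSC cells (12.3% to 15.8%, 1599 cells). The share was 22.9% in other ST-HSC cells (21.8% to 24.0%, 6057 cells) and 41.8% in ST-HSC Car1-high cells (35.8% to 48.0%, 263 cells). Without thinning the 5 shares were 24.2%, 31.2%, 13.5%, 22.1% and 40.3%. Of these 5 groups the share was highest in ST-HSC Car1-high cells and lowest in other LT-HSC cells. The small ST-HSC Pf4-high group lay lower still, at 3 of 47 thinned cells, or 6.38% (1.34% to 17.5%). With 1 library per gate the order has no replicate check.

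The genes varied together from cell to cell. For each gene, its level in cells in which the other 41 genes held 0.5% or more of UMIs was set against its level in cells in which they held under 0.2%. The median ratio over the 42 genes was 3.90 in LT-HSC Car1-high cells, 4.48 in Pf4-high cells, 6.95 in other LT-HSC cells, 6.47 in other ST-HSC cells and 3.49 in ST-HSC Car1-high cells. It was at least 1.5 for 41, 42, 42, 42 and 39 genes in those groups. How many of all genes reached 1.5 in the same split was not counted. Depth differed as well: split by the whole module, the medians were 17898 against 9482 UMIs in other ST-HSC cells. The part of depth in these ratios was not tested. In ST-HSC Car1-high cells, where 16 to 22 cells lay under 0.2%, the lowest ratio was 0.991. Rrm2, the regulatory subunit of ribonucleotide reductase, had a steep contrast: 197 CPM against 14.1 CPM in Car1-high LT-HSC cells and 169 against 2.53 in other LT-HSC cells. Uhrf1, which recruits the maintenance methyltransferase to newly copied DNA, was at 93.1 against 5.67 CPM in Car1-high cells and 99.9 against 4.005 in other LT-HSC cells. Blm, a RecQ helicase that resolves recombination intermediates, was the exception, at 98.9 against 84.3 CPM in Car1-high LT-HSC cells. Usp1, which removes ubiquitin from Pcna, also varied little there, at 169 against 97.6 CPM.

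A gene is called higher or lower here when its ratio of CPM passes 1.5-fold in either direction, a rule of size and not a test, among genes with a mean of at least 5 CPM. All 42 genes passed that minimum in each comparison. Between all LT-HSC and all ST-HSC cells, 1 was higher (10.3% of all genes tested) and 5 were lower (24.9%). Fen1 was the higher gene, at 88.7 against 52.9 CPM, and Hells, Brip1, Uhrf1, Pola1 and Nasp were the lower ones, at ratios of 0.511 to 0.638. Among cells with 0.5% or more of UMIs in the module, 3 were higher (9.02%), namely Fen1, Rrm2 and Ung, and 5 were lower (24.2%), again Hells, Brip1, Uhrf1, Pola1 and Nasp.

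Between LT-HSC Car1-high and other ST-HSC cells, 6 of the 42 genes were higher, against 16.5% of 10172 genes tested, and 4 were lower, against 40.5%. Genes as a whole were shifted here, with a median log2 ratio of -0.34 against 0.03 for the module. TMM factors multiplied every ratio by 1.34, which gave 17 higher and 2 lower genes of the set, against 31.1% and 26.3% of all genes, and took 13 genes from below 1 to above it. Hells and Brip1 stayed past the limit under these factors, and Pola1 and Uhrf1 did not. Between LT-HSC Pf4-high and the same ST-HSC cells, 11 were higher (13.9% of all genes tested) and 1 was lower (27.9%), with a median log2 ratio of 0.37 in the set and -0.14 in other genes. With TMM factors these counts were 14 and 1, against 17.5% and 24.3% of all genes, and no gene of the set turned. Between other LT-HSC and other ST-HSC cells, 0 were higher (12.1%) and 11 were lower (16.2%), with a median log2 ratio of -0.22 in the set and -0.0041 in other genes.

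Among the 8 genes of origin licensing and the Mcm helicase, the licensing genes Gmnn and Cdc6 had the highest ratios in Car1-high cells and Mcm4 in Pf4-high cells. Gmnn was at 163 CPM in LT-HSC Car1-high, 130 in Pf4-high and 80.3 in other LT-HSC cells, and at 86.1 CPM in other ST-HSC cells. Cdc6 was at 49.0, 28.7, 22.8 and 26.5 CPM in the same order. Against other ST-HSC cells both were higher in Car1-high cells, at ratios of 1.89 (1.82 to 1.96) and 1.85 (1.73 to 1.98), and Gmnn alone of the pair was higher in Pf4-high cells, at 1.51 (1.42 to 1.61). Mcm4 had the highest ratio of the 6 helicase subunits, at 1.42 (1.36 to 1.49) in Car1-high and 1.63 (1.52 to 1.74) in Pf4-high cells. Mcm2, Mcm3, Mcm5, Mcm6 and Mcm7 stood between 0.9003 and 1.04 in Car1-high cells, where Mcm3, Mcm5 and Mcm7 turned to above 1 with TMM factors. In Pf4-high cells they ran from 0.843 for Mcm7 to 1.39 for Mcm2. Mcm5 and Mcm7 were lower in other LT-HSC cells, at 53.6 against 86.7 CPM and 78.1 against 125 CPM.

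Genes of the fork and of the polymerases behind it differed in both directions. Tipin, which protects stalled forks, was at 143 CPM in LT-HSC Car1-high, 160 in Pf4-high, 98.6 in other LT-HSC and 102 in other ST-HSC cells. Cdc45, the helicase activator, was level between Car1-high, Pf4-high and other ST-HSC cells, at 24.3, 26.1 and 26.1 CPM, and lower in other LT-HSC cells, at 14.5 CPM. The gene for the flap endonuclease that trims Okazaki fragments, Fen1, had the highest ratio of all 42 genes in Car1-high cells, at 120 against 47.1 CPM, 2.55-fold higher (2.44 to 2.67). Pf4-high cells had Fen1 at 94.3 CPM, 2.002-fold higher (1.86 to 2.16), and other LT-HSC cells at 54.3 CPM. Pola1, the catalytic subunit of polymerase alpha, went the other way, at 132 CPM in Car1-high and 141 in other LT-HSC cells against 256 in other ST-HSC cells. Its ratio was 0.514 (0.497 to 0.532) in Car1-high cells and 0.858 (0.818 to 0.899) in Pf4-high cells. Pcna was at 144, 177, 119 and 173 CPM in the usual order, with no call in any of the 3 comparisons.

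**Figure D2:**
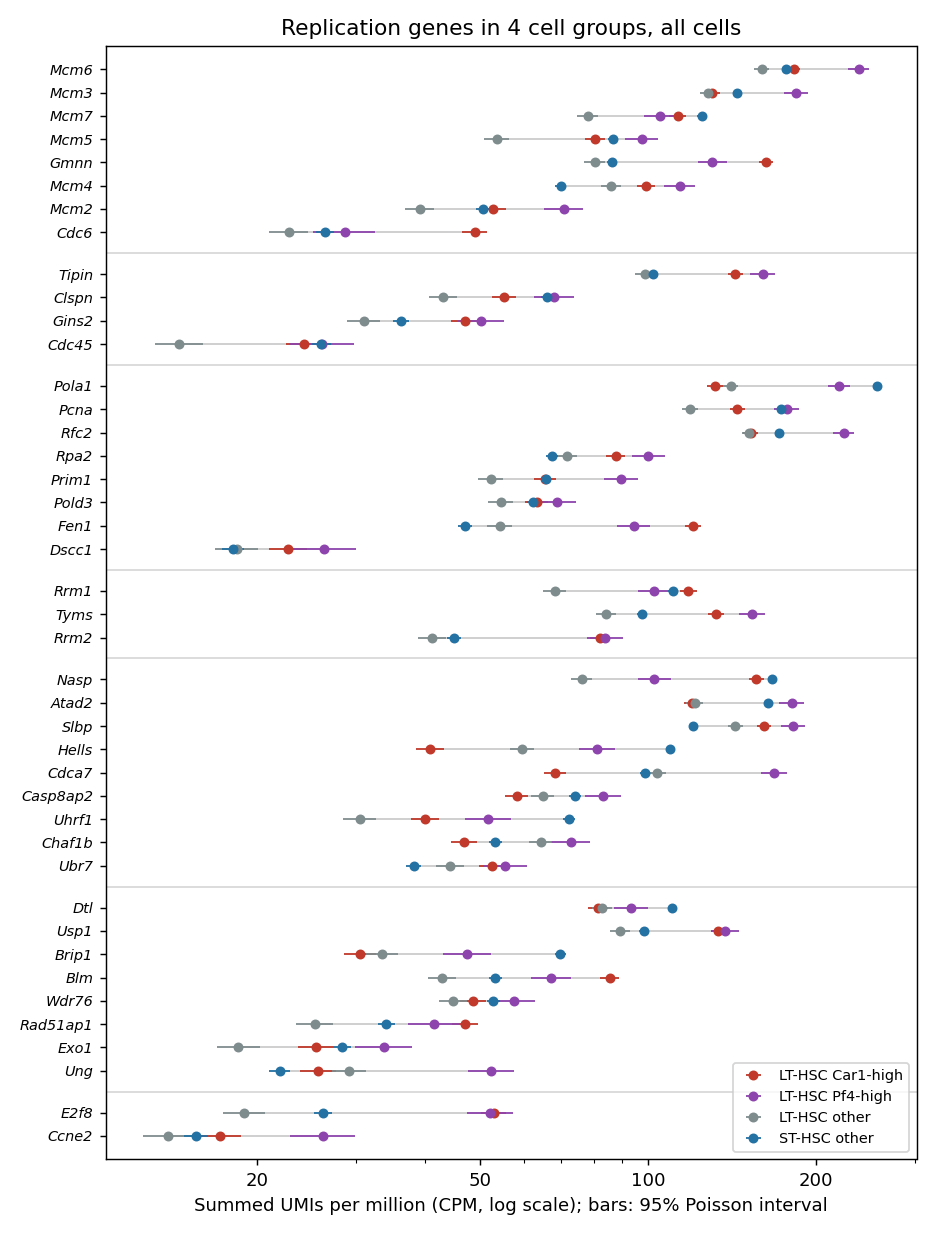
Level of each of the 42 genes (y axis, grouped by role from origin licensing at the top to cyclin and E2F at the bottom) as CPM on a log axis, in 4 groups of cells. Points are CPM and bars are exact Poisson 95% intervals for counting error. Fen1, Gmnn and Rrm2 are higher in the LT-HSC Car1-high and Pf4-high groups than in other ST-HSC cells, and Hells, Brip1 and Pola1 are highest in other ST-HSC cells.

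Genes of nucleotide synthesis stood above other ST-HSC cells as a sum in Car1-high and Pf4-high cells. Summed over Rrm1, Rrm2 and the thymidylate synthase gene Tyms, it stood at 1.31 times the ST-HSC level in Car1-high cells (1.28 to 1.35), 1.34 in Pf4-high cells (1.29 to 1.39) and 0.764 in other LT-HSC cells (0.742 to 0.787). Rrm2 was at 82.1, 83.7 and 41.1 CPM in these groups against 45.0 in other ST-HSC cells. Rrm1, the large subunit of the same enzyme, was at 118, 103 and 68.1 CPM against 111, so the subunits did not share a ratio. Tyms was at 132, 153 and 84.3 CPM against 97.5, and passed the limit in Pf4-high cells only, at 1.57 (1.48 to 1.67).

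Genes of chromatin assembly and of methylation after replication held 2 of the 4 lower genes in Car1-high cells, and the 1 in Pf4-high cells. Summed over 9 genes, this role was at 0.829 of the ST-HSC level in Car1-high cells (0.817 to 0.842), the lowest of the 7 roles, which the TMM factor of 1.34 takes above 1, and at 1.09 in Pf4-high cells (1.07 to 1.11). Hells, a chromatin remodeller needed for DNA methylation, was at 40.8 CPM in Car1-high, 81.1 in Pf4-high, 59.5 in other LT-HSC and 110 in other ST-HSC cells. Uhrf1 was at 39.9, 51.8, 30.5 and 72.2 CPM in that order, so every LT-HSC group lay below the ST-HSC cells for both genes. Cdca7, which works with Hells in a remodelling complex, followed another order, at 68.2, 168, 104 and 98.8 CPM. Its ratio was 0.690 (0.657 to 0.725) in Car1-high cells and 1.70 (1.61 to 1.80) in Pf4-high cells. Nasp, a histone chaperone, was the only lower gene in Pf4-high cells, at 103 against 167 CPM, while Car1-high cells had 156 CPM. Slbp, which binds the stem-loop of histone mRNA, was at 161, 182 and 143 CPM against 120.

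Repair genes and the cyclin and E2F pair held some of the highest ratios. Ung, which removes uracil from DNA, was at 25.7 CPM in Car1-high, 52.5 in Pf4-high, 29.2 in other LT-HSC and 21.9 in other ST-HSC cells, and its ratio of 2.39 (2.16 to 2.65) was the highest of the set in Pf4-high cells. Brip1, a helicase of the Fanconi anaemia pathway, was at 30.6, 47.6, 33.5 and 69.7 CPM. Blm, by contrast, was higher in Car1-high cells, at 85.4 against 53.3 CPM. E2f8, an atypical E2F that represses transcription, was at 53.0, 52.2, 19.0 and 26.3 CPM, about 2-fold apart in both comparisons, with ratios of 2.02 (1.89 to 2.15) and 1.99 (1.80 to 2.20). Cyclin E2 (Ccne2) was at 17.2, 26.2, 13.9 and 15.6 CPM, with a ratio of 1.103 (0.994 to 1.22) in Car1-high and 1.69 (1.46 to 1.94) in Pf4-high cells.

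The other genes of the set were Prim1, Pold3, Rfc2, Rpa2, Dscc1, Gins2, Clspn, Chaf1b, Casp8ap2, Ubr7, Atad2, Exo1, Rad51ap1, Usp1, Wdr76 and Dtl. None passed the limit in the Car1-high or Pf4-high comparison with other ST-HSC cells. Their ratios ran from 0.732 for the chromatin factor Atad2 to 1.38 for the recombination factor Rad51ap1 in Car1-high cells. In Pf4-high cells they ran from 0.845 for Dtl, which marks replication factors for destruction, to 1.48 for Rpa2, a subunit of the protein that coats single-stranded DNA.

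Among module-high cells the sum is nearly fixed by the limit, and only the make-up of the module can be read. There were 180 such LT-HSC Car1-high, 98 Pf4-high, 223 other LT-HSC and 1402 other ST-HSC cells, with median depths of 32785, 25573, 20788 and 17898 UMIs. Car1-high cells had 4 higher genes (14.1% of all genes tested) and 6 lower ones (36.9%). With TMM factors these counts were 10 and 4 of 42, beside 24.6% and 26.7% of all genes. The first lay near its share and the second below it. Pf4-high cells had 3 higher (13.0%) and 4 lower (27.1%), and other LT-HSC cells 4 higher (11.0%) and 3 lower (17.9%), all against other ST-HSC cells. Fen1 was at 162, 149 and 149 CPM in the LT-HSC groups against 86.7, and was the only gene called higher in all 3. Rrm2 was at 202, 180 and 167 CPM against 112, with ratios of 1.81 (1.69 to 1.93), 1.61 (1.46 to 1.76) and 1.497 (1.39 to 1.61), the last just under the limit. E2f8 and Cdc6 were higher in Car1-high cells alone, both at 1.51, and Ung in Pf4-high and other LT-HSC cells, at 1.78 and 1.80. The differences between groups were not tested.

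Brip1 and Uhrf1 were lower among module-high cells of every LT-HSC group. Brip1 was at 60.3 CPM in Car1-high, 96.3 in Pf4-high and 98.9 in other LT-HSC cells against 150 in other ST-HSC cells. Uhrf1 was at 94.2, 93.9 and 99.9 CPM against 167. Under alternative processing choices, ratios reached 0.693 for Uhrf1 in Car1-high and 0.687 for Brip1 in Pf4-high cells, below 1 but within 1.5-fold. Hells was at 96.1, 137 and 158 CPM against 224, and Pola1 at 240, 339 and 345 CPM against 500, with ratios of 0.480 (0.455 to 0.507), 0.679 (0.637 to 0.724) and 0.691 (0.658 to 0.726). Pola1 made up 4.08% of module UMIs in Car1-high and 7.58% in other ST-HSC cells. Nasp had its lowest level in Pf4-high cells, at 141 CPM against 224 in Car1-high and 296 in other ST-HSC cells. Cdca7 was at 91.0 CPM in Car1-high and 218 in Pf4-high cells, on either side of the 168 CPM in other ST-HSC cells. Mcm2, Mcm3, Mcm5, Mcm6 and Mcm7 stayed within 1.5-fold in every group, at ratios of 0.818 to 1.01 in Car1-high cells, where Mcm3, Mcm6 and Mcm7 turned to above 1 with TMM factors.

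**Figure D3:**
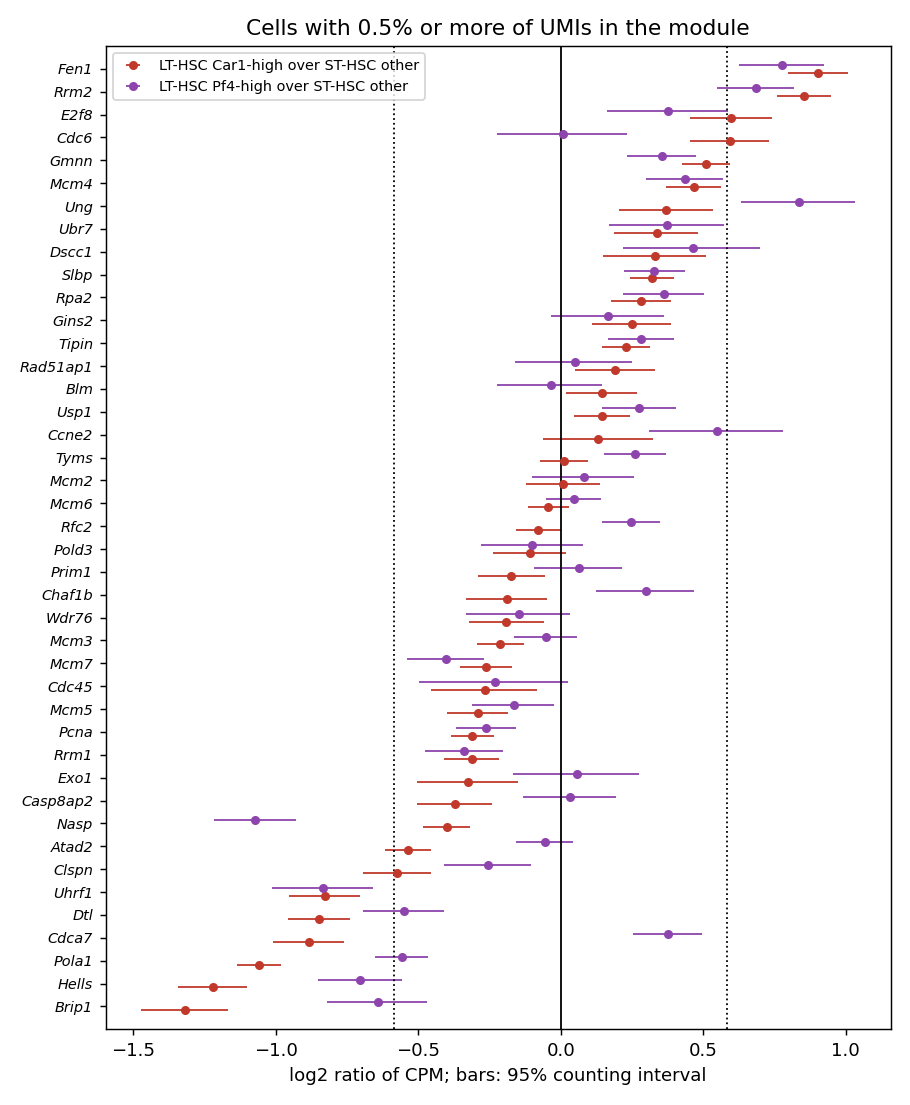
Log2 ratio of CPM (x axis) for each of the 42 genes (y axis) in module-high cells, LT-HSC Car1-high (red) and Pf4-high (purple) each over other ST-HSC cells, which both ratios share. Bars are 95% counting intervals and dotted lines mark 1.5-fold. Fen1 and Rrm2 lie past the right line in both, and Hells, Uhrf1 and Brip1 past the left line in both, while Cdca7 lies on opposite sides of 0.

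Comparisons inside the LT-HSC library keep the library the same on both sides. Car1-high over other LT-HSC cells gave 14 higher genes (11.7% of all genes tested) and 1 lower (35.7%), or 31 (29.9%) and 0 (20.4%) with TMM factors. Pf4-high over other LT-HSC cells gave 22 higher (5.87%) and 0 lower (17.5%), or 31 (10.0%) and 0 (13.1%) with TMM factors. The ratio was above 1 for all 42 genes. E2f8 led both, at 2.79 (2.52 to 3.09) and 2.75 (2.42 to 3.13). Restricted to module-high cells, 1 gene was higher (7.32%) and 4 were lower (27.4%) in Car1-high cells, and 0 were higher (3.80%) or lower (11.6%) in Pf4-high cells. E2f8 was the higher gene, at 83.0 against 50.02 CPM, and Cdca7, Hells, Brip1 and Dtl were the lower ones. Cdca7 was the furthest of them, at 91.0 against 186 CPM, a ratio of 0.489 (0.440 to 0.542), and the only lower gene left with TMM factors. Between Car1-high and Pf4-high LT-HSC cells, compared after the cells had been seen, 2 genes were higher in Car1-high (8.00%) and 8 in Pf4-high (23.8% of all genes tested). Nasp and Cdc6 were the 2, at ratios of 1.52 (1.41 to 1.64) and 1.71 (1.49 to 1.96), and Cdca7 was furthest the other way, at 0.406 (0.379 to 0.435). TMM factors multiplied these ratios by 1.23, which gave 5 and 3 genes past the limit and took 17 genes from below 1 to above it, so that 26 of 42 lay above 1 in place of 9. The shares of all genes under these factors were not counted for this comparison. Among module-high cells 2 were higher (8.86%), again Nasp and Cdc6, and 2 were lower (21.4%), Cdca7 and Brip1, with 27 of 42 above 1 under TMM factors in place of 13.

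Car1-high cells of the ST-HSC library allowed the same contrast in cells that share no library with the first. They were 268 cells with a median of 39102 UMIs, and this comparison was added after the cells had been seen. Over other ST-HSC cells they had 13 higher genes (18.4% of all genes tested) and 2 lower (35.4%), and the module ratio was 1.27 (1.26 to 1.29), against 1.27 (1.26 to 1.28) for Car1-high over other cells in LT-HSC. With TMM factors the module ratios were 1.51 and 1.76, and 23 and 31 genes were higher. Under these factors 29.9% of all genes were higher in LT-HSC, and the share in ST-HSC was not counted. Of the 14 genes higher in LT-HSC and the 13 higher in ST-HSC, 9 were common, 64.3% of the first and 69.2% of the second. Over all genes tested in both libraries 991 were common, 85.8% of those higher in LT-HSC and 55.1% of those higher in ST-HSC, so the overlap was not particular to the set. The 9 were Mcm5, Fen1, Rrm1, Rrm2, Nasp, Gmnn, Cdc6, Blm and E2f8. Cdc6 was at 49.0 against 22.8 CPM in LT-HSC and 72.8 against 26.5 CPM in ST-HSC. Nasp was at 156 against 76.1 CPM and 320 against 167 CPM, ratios of 2.05 (1.95 to 2.16) and 1.92 (1.85 to 1.99). Among module-high cells, Cdca7, Hells and Brip1 were lower in both libraries, of 4 lower genes in LT-HSC and 8 in ST-HSC (33.9% of all genes tested). Of all genes lower there, 83.7% of those in LT-HSC and 66.7% of those in ST-HSC were common. Cdca7 stood at ratios of 0.489 and 0.468 (0.416 to 0.526), the closest of the 3. With TMM factors 1 gene, Cdca7, stayed lower in module-high LT-HSC cells and 4 in ST-HSC, so Hells and Brip1 were no longer lower in both. The shares of all genes under these factors were not counted for module-high cells here.

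**Figure D4:**
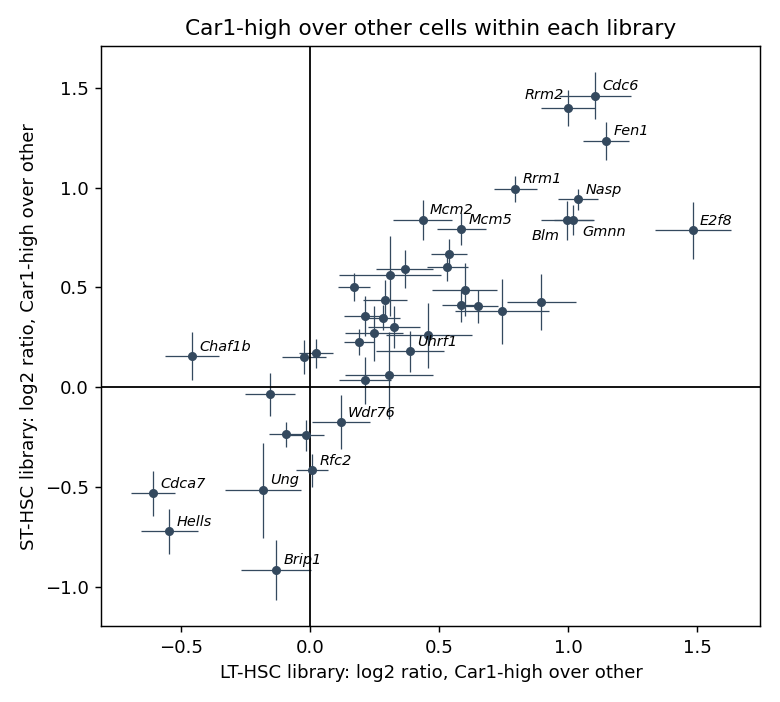
Log2 ratio of Car1-high over other cells for the 42 genes, in the LT-HSC library (x axis) and in the ST-HSC library (y axis), all cells. Bars are 95% counting intervals. Fen1, Rrm2 and Cdc6 lie at the upper right, Hells and Cdca7 at the lower left, and Wdr76 and Chaf1b on opposite sides of 0 in the 2 libraries.

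Set directly against each other, the Car1-high cells of the 2 libraries differed too. LT-HSC had 1 higher gene (10.6% of all genes tested) and 11 lower (16.7%), with a module ratio of 0.793 (0.784 to 0.802). Nasp was at 156 CPM against 320, Rrm1 at 118 against 221, Mcm5 at 80.5 against 150 and Uhrf1 at 39.9 against 81.8, while Ung was at 25.7 against 15.4. In module-high cells Nasp, Rrm1 and Mcm5 were lower, at 0.535, 0.610 and 0.659, and Ung, Dscc1 and Rfc2 were higher, at 2.13, 1.60 and 1.56 (15.6% of all genes higher, 16.6% lower). Dscc1 belongs to a clamp loader used in sister chromatid cohesion, and Rfc2 to the loaders of Pcna.

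The ratios were lower for longer genes. Over the 42 genes, Spearman's rho between the gene's span in GENCODE M21 (mm10) and its log2 ratio in module-high cells was -0.61 for Car1-high and -0.63 for Pf4-high LT-HSC cells over other ST-HSC cells. Over all annotated genes tested it was -0.46 (9995 genes) and -0.43 (10182 genes), so the relation was not particular to the set. Genes are not independent replicates, the points share their libraries, and the values are descriptions. Pola1 (chromosome X, 93304767 to 93632155) spans 327 kb, Brip1 (chromosome 11, 86058138 to 86201193) 143 kb and Hells (chromosome 19, 38930915 to 38971051) 40.1 kb. Fen1 (chromosome 19, 10199132 to 10204169) spans 5.04 kb and Rrm2 (chromosome 12, 24708241 to 24714146) 5.91 kb. The 14 genes under 15 kb had a median log2 ratio of 0.27 in Car1-high cells and the 12 genes of 30 kb or more one of -0.45. Blm, at 80.4 kb, and Cdca7, at 10.7 kb, lay off this order, with ratios of 1.11 and 0.542. Without the 12 long genes, a choice made after seeing the data, the module ratio over other ST-HSC cells was 1.14 in Car1-high and 1.30 in Pf4-high cells. Inside the LT-HSC library rho was -0.44 for Car1-high over other module-high cells and -0.26 over all genes.

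**Figure D5:**
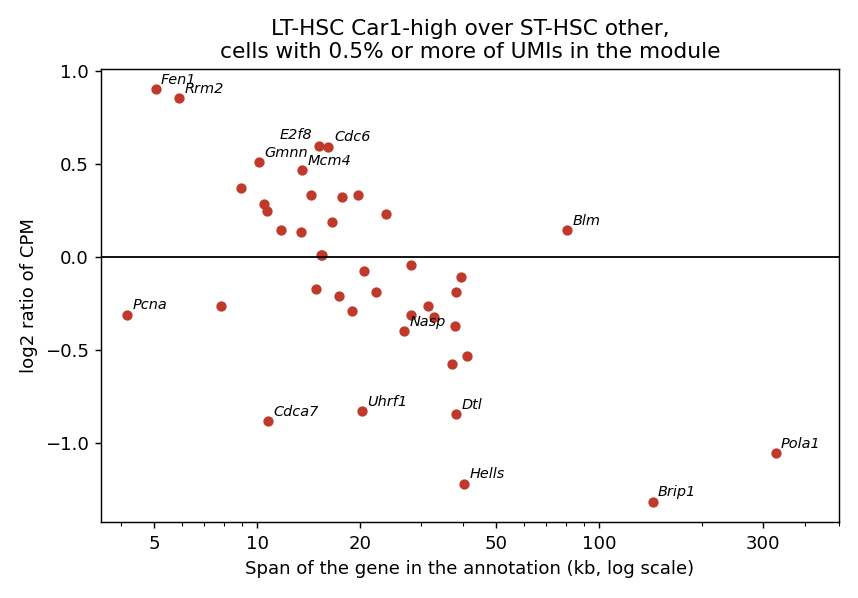
Span of each of the 42 genes in kb (x axis, log scale) against its log2 ratio in module-high cells, LT-HSC Car1-high over other ST-HSC cells (y axis). The short genes Fen1 and Rrm2 are at the top, and the long genes Brip1 and Pola1 near the bottom, with Blm and Cdca7 away from the trend.

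Replication genes outside the set were read from a list. Of 60 further replication genes, 59 were tested in all cells: 13 were higher and 7 lower in Car1-high cells and 11 and 2 in Pf4-high cells, against other ST-HSC cells. Of all genes, 16.5% were higher and 40.5% lower in the first comparison and 13.9% and 27.9% in the second. The median log2 ratios were -0.02 and 0.15, beside 0.03 and 0.37 for the 42, and the TMM factor takes the first above 0. Ccne1, the other cyclin E gene, was at 35.0 against 9.48 CPM in Car1-high cells, Rpa3 at 108 against 37.0 CPM, and the histone chaperone gene Asf1a at 118 against 43.8 CPM. In Pf4-high cells Rpa3 was at 132 and Asf1b at 73.2 CPM, against 37.0 and 26.8. The genes at the low end were Fam111a, Pold4 and Tonsl in Car1-high cells and Tonsl, Orc5 and Brca1 in Pf4-high cells.

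Many mitosis genes were higher in Car1-high cells, and most were lower in other LT-HSC cells. In all cells 15 of 30 were higher and 1 was lower in Car1-high cells, with a median log2 ratio of 0.55, and 2 and 3 in Pf4-high cells, with -0.09. Of all genes, 16.5% were higher and 40.5% lower in the first comparison and 13.9% and 27.9% in the second. In other LT-HSC cells 25 of 30 were lower than in other ST-HSC cells, beside 16.2% of all genes, with a median of -0.88. Ube2c, which hands ubiquitin to mitotic cyclins, was at 373 against 121 CPM in Car1-high cells, Cks2 at 548 against 185 and Cenpa at 287 against 106, while Kif23, the only lower gene, was at 21.0 against 74.8. Ckap2l led in Pf4-high cells, at 126 against 39.8 CPM. Split by the module, LT-HSC Car1-high cells had 4411 CPM of mitosis genes under 0.2%, 4214 from 0.2% to 0.5% and 2551 at 0.5% or more. Pf4-high cells had 4226, 2515 and 2002 CPM and other ST-HSC cells 1782, 3239 and 2672 CPM in these classes. These are sums, and those under 0.2% were carried by a minority of cells in all 3 groups. The median cell gave mitosis genes 0.133% of its UMIs under 0.2% and 0.228% at 0.5% or more in LT-HSC Car1-high cells. This median share was 0.0523% and 0.140% in Pf4-high cells and 0.0248% and 0.191% in other ST-HSC cells. By the median, module-high cells thus had more than cells under 0.2% in all 3 groups. From 0.2% to 0.5% the medians were 0.411%, 0.0478% and 0.0603%, so in Car1-high cells this middle class was highest. The 75th percentile under 0.2% was 0.617% in Car1-high, 0.278% in Pf4-high and 0.0451% in other ST-HSC cells. At 0.5% or more it was 0.349%, 0.260% and 0.358%.

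Regulators around the set were read for the same cells. Of 12 E2F and pocket protein genes, 2 were higher and 5 lower in Car1-high cells, near the 16.5% and 40.5% of all genes. The ends were E2f4 at 108 against 33.6 CPM and E2f7 at 3.66 against 21.9, with E2f3 at 48.5 against 128. In Pf4-high cells 3 were higher and 2 lower, beside 13.9% and 27.9% of all genes, with E2f1 at 59.8 against 31.4 CPM. Of 5 CDK inhibitor genes tested, 0 were higher and 2 lower in Car1-high cells, again near the 40.5% of all genes: Cdkn1c was at 2.15 against 10.02 CPM and Cdkn1a at 7.84 against 24.9. In Pf4-high cells Cdkn2d was higher, at 87.7 against 39.7 CPM, and Cdkn1a lower, at 10.5. Replication-dependent histone genes were higher in 39 of 43 tested in Car1-high cells and 25 of 40 in Pf4-high cells, with median log2 ratios of 1.36 and 0.89. Of all genes, 16.5% and 13.9% were higher in these comparisons. Replication-dependent histone mRNA mostly lacks a poly(A) tail, so poly(A) priming samples it poorly. Hist1h2ap was at 537 CPM in Car1-high and 442 in Pf4-high cells against 771.

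The non-member genes most like the module were ranked by their ratio between module-high cells and cells under 0.2%, among genes reaching 20 CPM, within each group. In LT-HSC Car1-high cells (180 against 185 cells) they included E2f1, Kntc1, Ccne1, Pclaf, Tk1, Lig1, Mybl2, Cdt1 and Ncapg2. E2f1 was at 57.0 against 4.58 CPM, a ratio of 12.5 (8.18 to 19.9), and Pclaf, which encodes a Pcna-binding factor, at 235 against 25.3. In Pf4-high cells (98 against 56) Tk1 led, at 157 against 7.62 CPM, and Mcm10, Gkn3, Kntc1, Ccne1, Aunip, Pole and Nsg1 were among those that followed. Their order is uncertain, since the cells under 0.2% held only 8 UMIs of Tk1 and 2 of Mcm10, whose ratio was 19.2 (5.20 to 161). Other LT-HSC cells had Pclaf first, at 342 against 4.44 CPM, and the genes after it included Tk1, Kntc1, Ccne1, Tcf19, Aunip, E2f7, Mcm10 and Brca1. Other ST-HSC cells had Ccne1 first, at 22.6 against 0.722 CPM, and then Mybl2, Hba-a1, Tk1, E2f7, Pclaf, Kntc1, Slc25a21, Ermap and Hbb-bs. The erythroid genes Hba-a1, Ermap and Hbb-bs among these come from cells that were below the Car1 limit.

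Cells under both limits were divided once more by lineage RNA. LT-HSC cells with Hlf, a stem cell factor, at 0.05% or more of UMIs had the module at 1505 CPM, and 8 of 437 were module-high without thinning, or 1.83% (0.794% to 3.58%). ST-HSC cells past the same limit had 2906 CPM, and 13.3% of 2621 (12.0% to 14.7%) were module-high, at like median depths of 11269 and 11133 UMIs. Module RNA was higher in ST-HSC cells with Dntt, a lymphoid progenitor enzyme, at 0.05% or more (3474 CPM, 23.7% of 712 cells). It was at 3738 CPM in 152 cells high in the granule genes Mpo, Elane and Ctsg, and at 4014 CPM in the 2846 remaining ST-HSC cells, of which 29.97% were module-high. LT-HSC held 0 granule-high cells and 1 Dntt-high cell, and its 1217 remaining cells had 3146 CPM, with 17.6% module-high.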

How the data were processed

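Raw UMI counts per gene and cell, 1 matrix per library, are what the authors deposited. Cell Ranger 7.2 and the mm10 genome are named per the submitters' processing notes, while 7.1.0 stands per the file headers; whether intronic reads were counted is not given in the sources used here. Total UMIs in kept cells were 64673871 in LT-HSC and 111783180 in ST-HSC. Counts were summed over the cells of a group and divided by the group's UMIs (CPM). Ratios carry exact conditional binomial 95% intervals, which hold counting error alone. There is 1 library per group, so p-values are not given, and a gene was called past 1.5-fold among genes of at least 5 mean CPM.

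The 42 genes, the lists and the Car1 and Pf4 limits were chosen with earlier results of these data known. A limit of 1% of UMIs in the module left no Car1-high or Pf4-high LT-HSC cell, so 0.5% was used for member ratios. Levels are given for all Mcm genes, for main regulators, for the extreme genes of each role and each list, and for the 10 non-member genes with the largest ratio between module-high and module-low cells, histone genes and unnamed models passed over; some of these are not reported here. Gene spans come from GENCODE M21 (mm10), matched by ID for 32158 of 32285 genes, and promoters from RefSeq (GRCm38.p6). Doublets were not removed: Scrublet marked 7 LT-HSC and 0 ST-HSC cells, and an alternative left out the 59 and 354 highest scores. Simulated group sums were drawn from Poisson distributions, which the intervals assume, without spread between cells or libraries. They therefore check the calculation only and not how far the intervals hold in these data. The intervals held the true ratio for 95.1% of unchanged genes (10230 genes, Car1-high over other ST-HSC cells). Genes set 2-fold higher were called in 100% of 50, and genes set 2-fold lower in 94% of 50. TMM and median-of-ratios factors came from edgeR 4.0.16 in R 4.3.3, used for scaling only, and the rest from Python 3.11.15 with scipy 1.17.1, pandas 2.3.3 and scanpy 1.11.5.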

Additional observations from a re-analysis of the deposited data

Results flagged for a closer look

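Wdr76 and Chaf1b stood out because the ratio of Car1-high to other cells lay on opposite sides of 1 in the 2 libraries, with counting intervals that excluded 1 in both. Wdr76, a chromatin-bound protein, had a ratio of 1.09 (1.004 to 1.17) in LT-HSC and 0.886 (0.806 to 0.972) in ST-HSC, from 48.6 against 44.8 CPM and 46.9 against 52.9 CPM. Chaf1b, a subunit of the chromatin assembly factor that deposits histones behind the fork, had a ratio of 0.728 (0.678 to 0.783) in LT-HSC and 1.11 (1.02 to 1.21) in ST-HSC, from 46.8 against 64.3 CPM and 59.5 against 53.4 CPM. The difference between the libraries was not tested, since each holds 1 sample. With TMM factors Wdr76 stood at 1.502 and 1.05 and Chaf1b at 1.01 and 1.32, so neither gene lay on opposite sides of 1.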

How the results depend on the processing

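No paired analysis was possible because there is 1 library per group. Of 418 values of module ratios, shares and counts of called genes under alternatives, 130 moved, and of 924 values of single genes 198 moved. Alternatives were run for 22 of the 42 genes in Car1-high and Pf4-high over other ST-HSC cells, and none of those ratios that was past 1.5-fold changed direction. For ratios of single genes beyond these only the scaling factors were run. The module ratio of all LT-HSC to all ST-HSC cells crossed 1 with both scaling factors and that of Car1-high to other ST-HSC cells with the Car1 limit at 0.5%. The cause was not tested unless the alternative itself leaves out cells or genes.

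Module ratios are given in the order all LT-HSC over all ST-HSC, then Car1-high, Pf4-high and other LT-HSC over other ST-HSC, then Car1-high and Pf4-high over other LT-HSC cells, against 0.920, 1.01, 1.19, 0.795, 1.27 and 1.501. With TMM factors they were 1.01, 1.35, 1.27, 0.764, 1.76 and 1.66, with median-of-ratios factors 1.02, 1.42, 1.30, 0.761, 1.78 and 1.67, and with the mean of per-cell CPM 0.932, 1.18, 1.35, 0.768, 1.53 and 1.76. Without members of 30 kb or more, chosen after seeing the data, they were 1.0, 1.14, 1.30, 0.8495, 1.34 and 1.53. Without Pola1 the first 5 were 0.946, 1.05, 1.22, 0.815 and 1.29. Without the highest Scrublet scores Car1-high over other ST-HSC was 1.02. With the Car1 limit at 0.1% the last 5 were 1.02, 1.21, 0.781, 1.31 and 1.54, and at 0.5% they were 0.978, 1.14, 0.832, 1.18 and 1.38. With the Pf4 limit at 0.02%, Pf4-high over other ST-HSC was 1.12, other LT-HSC over other ST-HSC 0.782, and the ratios over other LT-HSC 1.29 and 1.43. At 0.1% the last 3 were 0.817, 1.24 and 1.47.

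The share of cells at 1% or more of UMIs (thinned, 0% in Car1-high, 0.647% in Pf4-high, 0.375% in other LT-HSC and 0.693% in other ST-HSC) became 23.2%, 34.3%, 14.0% and 22.9% at a limit of 0.5%, and 0% in the last 3 groups at 1.5%. Unthinned it was 0% in Pf4-high and 0.316% in other ST-HSC cells. Thinned to 2500 UMIs it was 0.673% in Car1-high and 1.46% in other ST-HSC cells. Without Pola1 it was 0% in Pf4-high, 0.125% in other LT-HSC and 0.363% in other ST-HSC, with the Pf4 limit at 0.1% it was 0% in Pf4-high, and with at least 2000 genes and under 5% mitochondrial UMIs it was 0.954% in other ST-HSC cells. The share at 0.5% or more was 26.8% in Car1-high over every barcode, 15.8% in other LT-HSC with the Car1 limit at 0.5%, 28.7% in Pf4-high with the Pf4 limit at 0.02%, and 21.5% (thinned to 2500 UMIs) and 19.98% (without Pola1) in other ST-HSC cells.

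Among module-high cells, 4 higher and 6 lower genes in Car1-high cells became 10 higher with TMM factors and 10 higher and 3 lower with median-of-ratios factors. Of all genes, 24.6% were higher with TMM factors, and 25.6% higher and 25.7% lower with median-of-ratios factors. With the Car1 limit at 0.5%, 2 were higher in Car1-high and 2 in other LT-HSC cells. With a looser fold limit (5 to 4) the counts were 9 higher and 11 lower in Car1-high, 12 and 8 in Pf4-high and 11 and 6 in other LT-HSC cells, and at 2-fold 0 and 3, 0 and 1, and 0 and 0. Over all cells, all LT-HSC over all ST-HSC went from 1 higher to 3 with either factor (16.3% of all genes with TMM, 17.0% with median of ratios). Car1-high over other ST-HSC went from 6 higher to 17 (TMM), 18 (median of ratios) and 16 (per-cell mean), and from 4 lower to 2 with either factor. Of all genes there, 31.1% were higher and 26.3% lower with TMM, and 33.7% and 24.7% with median of ratios. Pf4-high over other ST-HSC went from 11 higher to 17 (median of ratios), 19 (per-cell mean) and 7 (Pf4 limit 0.02%), and from 1 lower to 0, 0 and 2. Of all genes there, 19.1% were higher and 22.9% lower with median of ratios. Car1-high over other LT-HSC went from 14 higher to 31 (either factor), 23 (per-cell mean) and 8 (Car1 limit 0.5%), and from 1 lower to 0 under each of these and the Pf4 limit of 0.02%, and to 2 with that of 0.1%. Of all genes there, 29.9% were higher with TMM and 30.8% with median of ratios. Pf4-high over other LT-HSC went from 22 higher to 34 (per-cell mean) and 12 (Car1 limit 0.5%). With the looser fold limit there were 7 higher and 13 lower for all over all, 16 and 8 for Car1-high, 23 and 4 for Pf4-high and 1 and 18 for other LT-HSC over other ST-HSC, 3 lower for Car1-high and 40 higher for Pf4-high over other LT-HSC. At 2-fold there were 0 and 0, 2 and 2, 2 and 0, and 3 lower, then 5 higher and 0 lower for Car1-high and 2 higher for Pf4-high over other LT-HSC. With TMM factors the share of all calls that were higher went from 28.9% to 54.2% for Car1-high over other ST-HSC, from 29.3% to 46.0% for all over all, from 24.7% to 59.5% for Car1-high and from 25.1% to 43.4% for Pf4-high over other LT-HSC, and among module-high cells from 27.7% to 47.9% for Car1-high over other ST-HSC. With median-of-ratios factors Pf4-high over other ST-HSC went from 33.3% to 45.5%. The per-cell mean was not run for module-high cells, and at 1.5% no cells were left for counts of genes. Shares of all genes were not counted at the other fold limits, with the per-cell mean or with moved Car1 and Pf4 limits. Counts of the set under those alternatives therefore cannot be set against genes as a whole.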
